A study of Rattus norvegicus with 5 samples.

Results

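The 10 genes described here, grouped as liver sinusoidal endothelial genes, were followed in normal rat liver and in 4 rat hepatocellular carcinoma cell lines. Whether their liver signals came from sinusoids or from other vessels was not tested. They are Lyve1, Stab1, Stab2, Kdr, Flt1, Tek, Tie1, Pecam1, Vwf and Eng, and they were chosen by gene symbol. Probes were taken when the platform annotation gave them 1 of these symbols. This found 17 probes for 9 of the 10 genes, among 12198 genes with a probe of their own on the array. The expression of Eng was not analysed here. The 5 arrays were single-colour CodeLink slides with 1 sample each. The lines C5F and C6 are described by the submitters as of low and N1 and L2 as of high metastatic ability. The labels place the origin of all 4 lines in male F344 rats of 31 weeks given N-nitrosomorpholine and diethylnitrosamine. The liver was that of untreated male SD rat at 50 weeks, with the number of animals not stated. Strain, age, carcinogen and cell culture therefore differ together between the lines and the liver, and their parts cannot be told apart. Each line is a culture measured once, so the spread is that between lines, and no spread between livers was measured.

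Liver sinusoidal endothelial cells form a thin, perforated wall between blood and hepatocytes. They clear waste molecules from blood with scavenger receptors, among them the stabilins, and bind hyaluronan. Like other endothelium they depend on vascular endothelial growth factor (VEGF), read by the tyrosine kinase receptors Kdr and Flt1, and on angiopoietins, read by Tek with its relative Tie1. Pecam1 joins endothelial cells at their contacts, Vwf captures platelets, and Eng is a co-receptor for bone morphogenetic proteins (BMPs).

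Promoters from the RefSeq promoter table are shown for Lyve1, Stab2 and Kdr, whose probes were near background in every line, and for Tie1, whose lines varied, so that their start regions can be compared. Each stretch runs 5′ to 3′ from 250 bases before to 50 bases after a transcript start in rat build GRCr8. Capitals mark the letters AGGAAG on either strand, a form of the site bound by ETS factors, which are regulators of many endothelial genes.
Lyve1, chr1:174410928-174411227, minus strand: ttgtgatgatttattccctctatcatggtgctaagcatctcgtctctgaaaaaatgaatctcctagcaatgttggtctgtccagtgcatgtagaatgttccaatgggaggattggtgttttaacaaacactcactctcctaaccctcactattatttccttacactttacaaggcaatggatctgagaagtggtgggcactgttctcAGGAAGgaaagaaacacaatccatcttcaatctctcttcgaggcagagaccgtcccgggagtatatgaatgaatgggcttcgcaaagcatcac
Stab2, chr7:23320513-23320812, minus strand: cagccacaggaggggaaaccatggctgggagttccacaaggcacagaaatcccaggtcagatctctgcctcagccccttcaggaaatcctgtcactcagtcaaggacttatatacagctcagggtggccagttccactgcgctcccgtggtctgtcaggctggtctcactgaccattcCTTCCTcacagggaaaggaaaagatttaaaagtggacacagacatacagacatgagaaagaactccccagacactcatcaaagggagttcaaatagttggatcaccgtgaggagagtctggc
Kdr, chr14:32571813-32572112, plus strand: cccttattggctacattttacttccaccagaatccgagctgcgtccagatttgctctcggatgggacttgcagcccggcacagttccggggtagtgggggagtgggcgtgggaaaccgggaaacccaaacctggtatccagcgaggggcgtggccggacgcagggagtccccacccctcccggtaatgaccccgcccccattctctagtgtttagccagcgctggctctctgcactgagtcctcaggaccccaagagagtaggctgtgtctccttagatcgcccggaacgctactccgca
Tie1, chr5:137304932-137305231, minus strand: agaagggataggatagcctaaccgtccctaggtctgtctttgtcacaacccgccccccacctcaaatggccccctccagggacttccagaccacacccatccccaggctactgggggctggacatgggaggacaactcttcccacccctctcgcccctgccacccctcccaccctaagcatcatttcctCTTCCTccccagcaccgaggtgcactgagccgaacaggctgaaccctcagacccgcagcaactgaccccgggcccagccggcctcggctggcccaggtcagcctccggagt
The table held 7 of the 10 members. AGGAAG was present in 5 of these 7 promoters (Lyve1, Stab2, Flt1, Tie1 and Eng) and in 34.5% of all 33469 promoters of the same length. The match began at -43 in Lyve1, -72 in Stab2 and -61 in Tie1, counted from the start site, and was absent from Kdr and Stab1. The core GGAA, which lies within AGGAAG, was present in all 7 and in 95.8% of all promoters. The longer ETS form CGGAAGT was in 0 of 7 against 6.32% of all, and the GATA form AGATAA in 0 of 7 against 11.6%. The SOX form ACAAAG was found in Tie1 and Eng (18.8% of all promoters), the FOX form TGTTTA in Kdr (13.7%) and the letters TATAAA in Flt1 (14.2%). The GC content was 43.3% in Lyve1, 51.7% in Stab2, 61.0% in Kdr and 64.3% in Tie1, with a median of 51.7% over all promoters. The Stab2 start used by the table lies 22071 bases inside the gene record, so other starts of that gene were not examined. A match describes these letters and is not evidence of binding.

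The signals below are log2 normalised signals with a floor of 1.34, the median of spots near background, to which lower signals were raised. A spot called near background can thus lie above the floor. The scanner software called each spot above or near background, or unusable because of an irregular shape. Of the 17 member probes, 11 were above background on at least 1 array and 9 were so in liver. The other 6 (second probes of Kdr, Tie1 and Pecam1, another of Flt1, and a pair of Tek) were near background on every array with a usable spot. Levels of different probes are not compared with each other.

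The scavenger and hyaluronan receptors were bright in liver and dim in the lines. Lyve1, a hyaluronan receptor of sinusoidal and lymphatic endothelium, stood at 7.74 in liver, against 1.62 (C5F), 1.34 (C6), 1.34 (N1) and 1.68 (L2). All 4 lines were near background, so liver and lines did not overlap. Stab2, the main hyaluronan-clearing scavenger receptor of the sinusoid, was at 4.81 in liver and at the floor of 1.34 in each of C5F, C6, N1 and L2. Stab1, a related scavenger receptor also found on some macrophages, was at 7.45 in liver, against 4.24 (C5F), 3.04 (C6), 3.50 (N1) and 3.18 (L2). Only C5F among the lines was called above background for Stab1, and liver was 9.25-fold brighter than C5F on these single arrays.

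Among the receptor tyrosine kinases, Kdr, the main signalling VEGF receptor, was at 5.55 in liver, against 1.34 (C5F), 1.34 (C6), 1.503 (N1) and 1.34 (L2), near background in all 4 lines. Tek, the angiopoietin receptor, was at 6.94 in liver, against 1.49 (C5F), 1.34 (C6), 2.43 (N1) and 1.59 (L2), again near background in every line. Tie1, its orphan relative, was at 7.26 in liver, against 1.34 (C5F), 4.59 (C6), 3.09 (N1) and 3.02 (L2). C6 alone among the lines was above background for Tie1, and liver was 6.36-fold brighter than C6. Flt1, a VEGF receptor that can also act as a decoy, was at 6.50 in liver, but its 4 line spots on probe GE21586 were irregular and gave no value. With irregular spots kept, Flt1 was at 6.29 in liver, against 6.04 (C5F), 6.02 (C6), 6.38 (N1) and 6.23 (L2), so that the liver lay within the range of the lines. Another Flt1 probe, GE20651, was above background only in C6 (3.88), with 3.41 in C5F, 1.34 in N1, 1.34 in L2 and 2.29 in liver, all near background. Which Flt1 probe reads the transcript was not tested.

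Both adhesion and haemostasis genes with a probe were above background in at least 1 line. Vwf, the platelet-binding glycoprotein, was at 6.75 in liver, against 3.90 (C5F), 1.34 (C6), 3.81 (N1) and 1.99 (L2) on its brighter probe, GE1293946. Of the lines only C5F was above background. Its second probe, GE16242, was at 4.84 in liver, 2.33 in C5F and 1.34 in each of C6, N1 and L2, all lines near background. Pecam1, the CD31 adhesion molecule, was above background in all 4 lines, at 4.02 (C5F), 4.24 (C6), 4.40 (N1) and 4.19 (L2), a mean of 4.21 ± 0.15 (SD, n = 4 lines). Its liver spot was irregular and is not used in the main values. The Pecam1 second probe was at the floor on all 5 arrays, and the scanner files assign the 2 probes to different UniGene clusters. Among members with usable spots in all 4 lines, Pecam1 was thus the 1 gene above background in each, on 1 of its 2 probes.

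**Figure D1:**
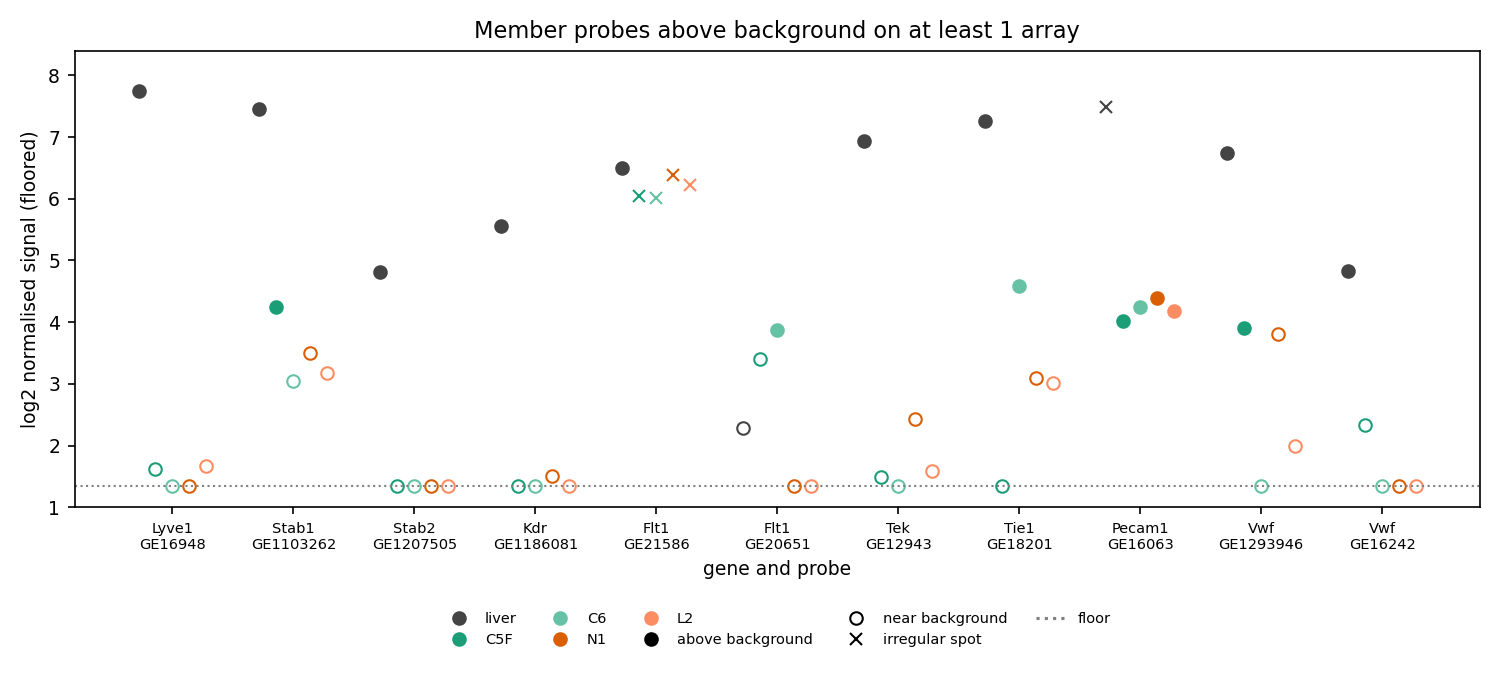
Log2 normalised signal of the 11 member probes above background on at least 1 array (horizontal axis: gene and probe) in liver and the lines C5F, C6, N1 and L2, with filled points above background, open points near background and crosses for irregular spots, which come from the normalisation that keeps them. Lyve1, Stab2, Kdr and Tek are above background in liver and near background in all 4 lines, while the 4 Pecam1 line points lie between 4.02 and 4.40.

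Setting the 4 lines against the reference tissue asks how far the carcinoma lines differ from the tissue. Lyve1, Stab1, Stab2, Kdr (on 1 of its 2 probes), Tek (on 1 of 3) and Vwf (on 1 of 2) were lower in the lines. These are 6 of the 7 member genes that could be tested, beside 9.38% of all 11949 tested probes called lower and 9.01% called higher. None of the 7 was higher. With the brighter Vwf probe standing for that gene, the median difference over the 7 genes was -4.17 on the log2 scale, and over all tested probes it was 0.15. All 7 tested genes entered through the liver spot alone, since none was above background in 2 lines. For a gene that enters this way a brighter liver is close to fixed, so the count describes the members and is no support for a difference. In bulk RNA, fewer cells of a type and less RNA per cell cannot be told apart.

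Because their line spots were near background, 4 members are given as bounds, against the lowest signal called above background on each line's array. Lyve1 fell at least 19.9-fold (limma adjusted p = 0.007), Tek at least 11.4-fold (adjusted p = 0.0138), Kdr at least 4.36-fold (adjusted p = 0.0079) and Stab2 at least 2.61-fold (adjusted p = 0.00939). The bounds for Kdr and Stab2 are small because their liver signals were modest, and they do not show a smaller drop. Stab1, with C5F above background, fell by 3.96 ± 0.56 on the log2 scale (SE, 4 lines against 1 liver; limma adjusted p = 0.0324), a call lost with scaling to the median of probes above background (adjusted p = 0.054) and with no filter (0.0894). Vwf differed by -3.99 ± 1.35 on its brighter probe (limma adjusted p = 0.13) and fell at least 2.65-fold on the second (limma adjusted p = 0.0327), so that the call depends on the probe. Tie1 differed by -4.25 ± 1.39 (limma adjusted p = 0.124), with line values spread over a wider range than those of Kdr and Tek. With an offset of 50, which shrinks differences of dim spots, Tie1 and the brighter Vwf probe passed (limma adjusted p = 0.032 for each). Liver was above all 4 lines for each of the 8 tested member probes. Among the 8442 probes that passed the filter and were usable on all 5 arrays, 34.5% had this pattern. The member probes entered through their liver spots alone, so the pattern was close to fixed by the filter. The share also covers probes that entered through the lines, so the comparison is no support for a difference. Near background in all 4 lines were 5 of the 7 genes, Lyve1, Stab2, Kdr, Tek and Vwf (second probe). Of the 5524 probes above background in liver and usable in every line, 17.0% were so. That share is per probe, whereas a gene counts here on any of its probes. Vwf would not count on its brighter probe, where C5F was above background.

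**Figure D2:**
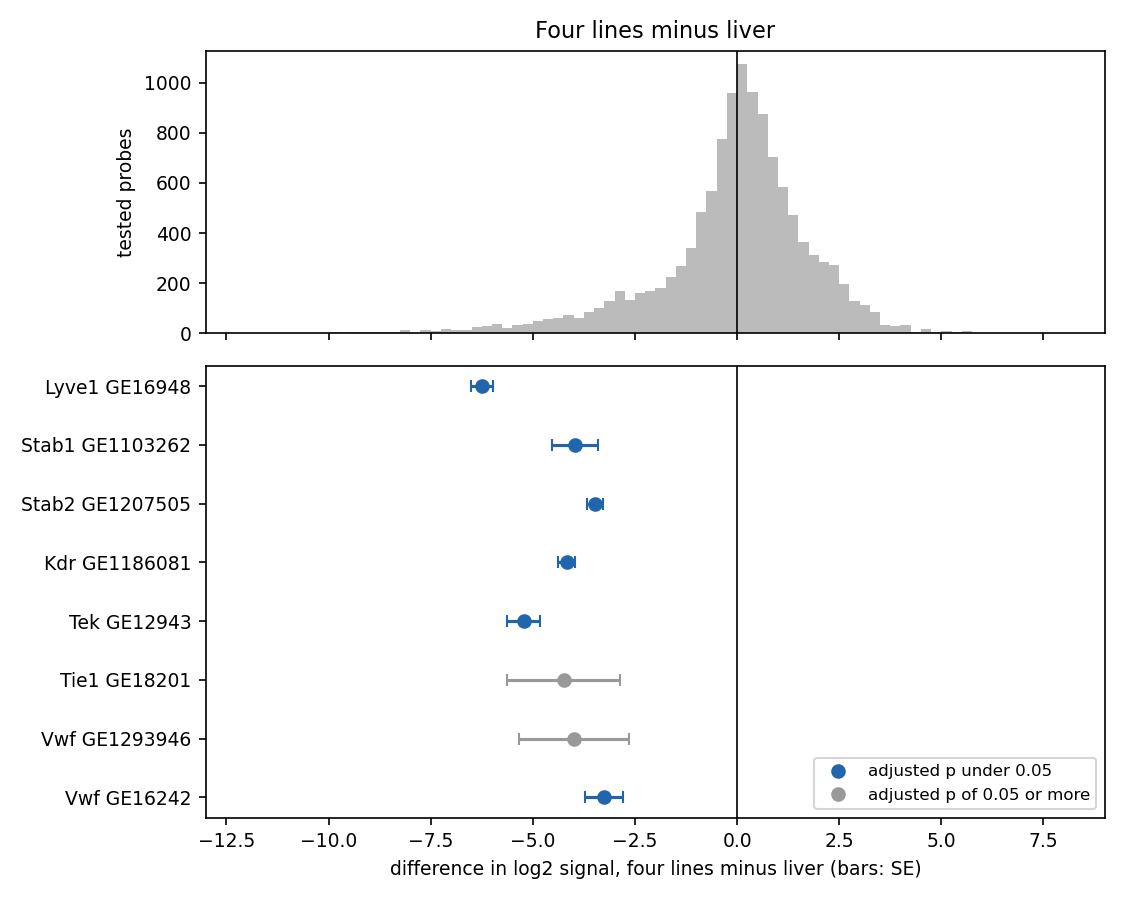
Upper panel, the number of tested probes (vertical axis) by their difference in log2 signal, 4 lines minus liver (horizontal axis); lower panel, the same difference for the 8 tested member probes with standard errors, blue where the limma adjusted p was under 0.05. All 8 member points lie left of -3, between -6.25 and -3.25, and those of Tie1 and the brighter Vwf probe are grey with the widest bars.

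The size of the error needs the floor in view. Stab2 was at the floor in all 4 lines, so its spread between lines was 0 and its standard error of 0.19 came from the variance shared across probes. The call was lost for all 6 genes when C5F was left out and when C6 was left out, where 0 of 8795 and 0 of 8804 tested probes passed in either direction (lowest adjusted p = 0.0608 and 0.0651), although 2999 and 2975 probes were at an unadjusted p under 0.05. Without N1 or without L2, 4 genes kept the call in each case, and Stab1 and Vwf did not. An exact permutation of 4 lines against 1 liver cannot give a p below 0.2.

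With irregular spots kept, 9 member genes could be tested. Pecam1 then had a liver signal of 7.49 and fell by 3.28 ± 0.21 (limma adjusted p = 0.0108), 9.69-fold. Flt1 differed by -0.12 ± 0.20 (limma adjusted p = 0.679).

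Setting the high-metastatic against the low-metastatic lines asks what goes with metastatic ability. No member passed the test between the classes: 0 of 13741 probes passed the limma adjusted p (percent called 0), with 1005 (7.31%) at an unadjusted p under 0.05 and 0 also with robust moderation. None of the 8 member genes that could be tested had an unadjusted p under 0.05. Only 4 of them had a line above background. Pecam1, the best measured of these, differed by 0.16 ± 0.21 (high minus low, SE, 2 lines per class; limma adjusted p = 0.861). Stab1 differed by -0.30 ± 0.50, Tie1 by 0.09 ± 1.25 and Vwf by 0.28 ± 1.21 on its brighter probe (limma adjusted p from 0.895 to 0.998). The single line above background belonged to the low-metastatic class for Stab1 (C5F), Vwf (C5F) and Tie1 (C6), and the other 3 lines were near background in each case. With 2 lines per class an exact two-sided permutation cannot go below 0.333, and these values do not show that the classes are alike.

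Other endothelial genes were followed as 2 lists, 20 further genes of sinusoidal endothelium and 26 of endothelium in general. Of the sinusoidal list 14 genes had a probe and 6 could be tested, of which 2 were called lower and 1 higher, with a median of -1.31. Dnase1l3, a secreted DNase of sinusoidal endothelium and macrophages, was at 8.71 in liver and between 2.84 and 4.78 in the lines, and fell by 5.14 ± 0.73 (limma adjusted p = 0.0325). Clec1b, a C-type lectin receptor, fell at least 9.11-fold (limma adjusted p = 0.0429). With no filter on dim probes neither passed (limma adjusted p = 0.0927 for Dnase1l3 and 0.119 for Clec1b). Maf, a transcription factor of sinusoidal identity, was at 7.54 in liver and between 4.42 and 5.72 in the lines, a difference of -2.48 ± 0.59 that did not pass (limma adjusted p = 0.0726). Gpr182, a scavenging chemokine receptor of endothelium, is the gene called higher (limma adjusted p = 0.0315), but liver was near background on that probe (1.85) and the line mean of 3.48 was too dim to give a bound, so no size of a rise is given. Its call was lost with the authors' normalized intensity (limma adjusted p = 0.0516), with an offset of 50 (0.154) and with the lines as 1 group (0.0657). On its other probe Gpr182 fell at least 10.5-fold (limma adjusted p = 0.0189). Gata4, the regulator of sinusoidal differentiation that hepatocyte precursors also use, was between 7.38 and 7.61 on all 5 arrays.

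Of the general endothelial list 21 genes had a probe and 12 could be tested, of which 2 fell and 0 rose, with a median of -0.26. Dll4, a Notch ligand of arterial and sprouting endothelium, was at 6.02 in liver and near background in all lines, and fell at least 6.03-fold (limma adjusted p = 0.0167). Sox18, a SOX factor of vessel development, fell by 1.29 ± 0.20 (limma adjusted p = 0.0354), from 5.38 in liver to between 3.99 and 4.16 in the lines, and did not pass with scaling to the median of probes above background (adjusted p = 0.0812) or with the authors' normalized intensity (0.0669). Esam, an endothelial adhesion molecule, was at 6.27 in liver and at 6.43 in C6, with 4.34 in C5F, 4.90 in N1 and 4.94 in L2. Sox17, another SOX factor, was near background in liver (2.76) and between 3.60 and 4.98 in the lines on its standing probe (limma adjusted p = 0.119), and fell at least 1.88-fold on another (limma adjusted p = 0.0492). Among lymphatic genes, Prox1, which hepatocytes also express, was at 6.22 in liver and between 6.55 and 6.78 in the 3 lines with a usable spot. Flt4, the receptor of lymphatic VEGF, was between 4.42 and 4.93 on all 5 arrays on 1 probe. Its other probe, GE21303, was near background in every line, with no usable liver spot. Pdpn, also of the lymphatic list, was at the floor on all 5. Reln, a secreted glycoprotein with the largest difference of the list, was at 8.09 in liver, 5.24 in C6 and near background in N1 (1.42), with irregular spots in C5F and L2 and no test. Of the 2 lymphatic genes tested 0 passed limma's adjusted p, nor did either have an unadjusted p under 0.05.

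Of 14 listed ligands of the member receptors 12 had a probe and 5 could be tested, of which 1 fell and 0 rose, with a median of -0.11. Angpt4, an angiopoietin that binds Tek, was at 5.89 in liver and between 4.27 and 4.74 in the lines, and fell by 1.41 ± 0.20 (limma adjusted p = 0.0327). This call was lost under each of the other scalings, to the median of probes above background (limma adjusted p = 0.0717), to the 75th percentile (0.0528) and by the authors' normalized intensity (0.0909). Angpt1 and Angpt2, the principal Tek ligands, were near background on all 5 arrays. Vegfa, the principal Kdr ligand, was at 8.39 in liver, 6.97 in C5F and 6.38 in C6, with irregular spots in N1 and L2 and no test. Its other probe had no usable liver spot and was at 6.95 (C5F), 7.03 (C6), 7.17 (N1) and 6.45 (L2). Vegfb, a ligand of Flt1, was near background in liver (3.58) and at 4.79 in C6, 5.62 in N1 and 4.21 in L2. It was at least 2.01-fold brighter in these lines without passing the test (limma adjusted p = 0.346). On its other probe Vegfb was near background in liver (3.505) and L2 (3.67), with 4.46 in C6 and 5.54 in N1 (limma adjusted p = 0.527). Tgfb3, a ligand of the receptor complex that Eng joins, was at 5.07 in liver and between 3.71 and 5.02 in the lines (limma adjusted p = 0.318).

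Of 22 listed co-receptors and signalling partners 19 had a probe and 15 could be tested, of which 3 rose and 0 fell, with a median of 0.31. Id1, a target of BMP signalling, was at 5.77 in liver, against 8.26 (C5F), 8.11 (C6), 9.19 (N1) and 8.81 (L2), and rose by 2.82 ± 0.26 (limma adjusted p = 0.0169). All 4 lines lay above liver. Bmpr2, the type II BMP receptor, rose at least 1.23-fold (limma adjusted p = 0.034) on 1 probe, with its other probe near background on every array. Acvr2a, a type II activin and BMP receptor, rose at least 1.82-fold (limma adjusted p = 0.0326). With an offset of 50 neither passed (limma adjusted p = 0.123 for Bmpr2 and 0.0615 for Acvr2a), nor did Bmpr2 with no filter (0.0825) or Acvr2a with the authors' normalized intensity (0.0519). Smad1, which carries the BMP signal, differed by 1.57 ± 0.24 (limma adjusted p = 0.0616) and rose at least 1.37-fold on a second probe (limma adjusted p = 0.0424). A further Smad1 probe, GE21379, was near background on every array, at 2.87 in liver and 1.34 in each line. Nrp1, a VEGF co-receptor that many carcinoma cells also carry, was between 4.81 and 5.18 in the lines and near background in liver (4.02), at least 1.88-fold brighter without passing (limma adjusted p = 0.0938). Another Nrp1 probe, GE1305745, was near background in C5F (1.34) and above it in N1 (5.28) and L2 (6.27), with no usable spot in liver or C6. The remaining Nrp1 probe, GE13187, was above background only in L2 (4.29). It was near background in liver (3.95), C5F (1.34), C6 (2.77) and N1 (2.085), with liver above these lines. Acvr2a, Bmpr2 and the second Smad1 probe were near background in liver, so their folds are bounds.

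**Figure D3:**
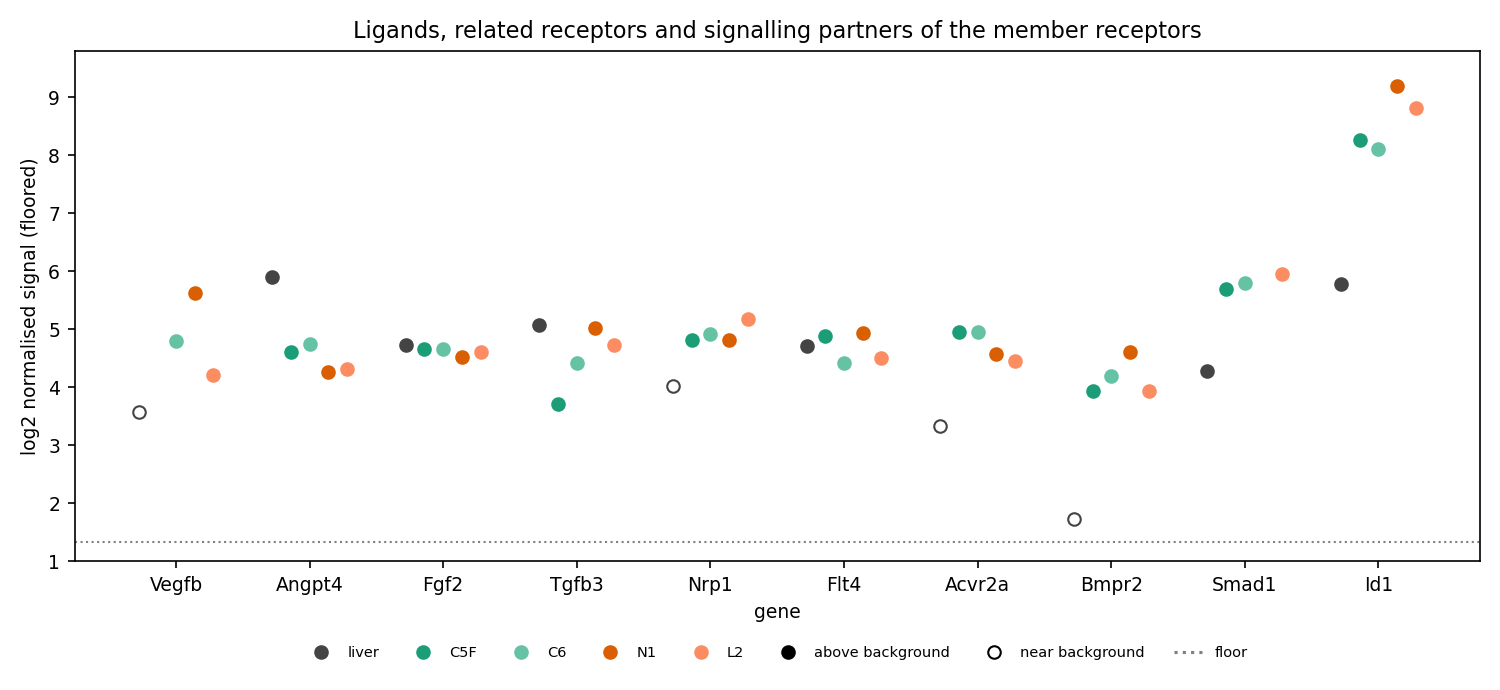
Log2 normalised signal (vertical axis) of 10 ligands, related receptors and signalling partners of the member receptors in liver and the lines C5F, C6, N1 and L2, with filled points above and open points near background and unusable spots not drawn. The 4 Id1 line points lie between 8.11 and 9.19, above liver at 5.77, and the Fgf2 points of all arrays lie between 4.52 and 4.73.

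Hyaluronan, bound by Lyve1 and cleared by Stab2, was followed through its synthases and other receptors. Has1 and Has2 were near background on all 5 arrays, and Has3 was at 8.15 in liver, 6.82 in C5F and 7.09 in N1, with no test. Cd44, the broadly expressed hyaluronan receptor, was near background in liver (3.28) and at 7.27 in C6, 5.59 in N1 and 7.22 in L2, at least 7.09-fold brighter, without passing (limma adjusted p = 0.114) and without a usable spot in C5F. Sparc, a matrix protein cleared by Stab1, was at 9.26 in liver, against 3.65 (C5F), 1.34 (C6), 6.55 (N1) and 7.71 (L2), a difference of -4.45 ± 1.11 (limma adjusted p = 0.0788), and fell at least 3.67-fold on its second probe (limma adjusted p = 0.0256).

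Several markers of the other cell types of liver also fell. Of the Kupffer cell list 6 genes were tested and 4 fell, of the stellate list 4 of 5, of the leukocyte list 1 of 3, of the erythroid list 1 of 1 and of the hepatocyte list 5 of 8, and 0 genes of these lists rose. The complement gene C1qa of Kupffer cells fell at least 49.8-fold (limma adjusted p = 0.00683) and the stellate receptor Pdgfrb at least 4.65-fold (limma adjusted p = 0.00703). In liver 3 of 6 usable leukocyte genes and 6 of 8 usable stellate genes were above background. Among them the leukocyte gene Nkg7 (8.61) fell at least 36.2-fold (limma adjusted p = 0.007). The stellate gene Ecm1 (9.79) fell by 2.74 ± 0.33 (limma adjusted p = 0.0453), a call lost with no filter (0.13). The leukocyte gene Ptprc and the stellate gene Lrat were near background on all 5 arrays. Over probes usable on all arrays, the summed normalised signal of the 7 members was 848 in liver and 32.5 to 47.3 in the lines. That of 6 Kupffer genes was 4421 in liver and 57.7 to 86.1 in the lines, that of 5 stellate genes 94.5 and 22.9 to 38.3, and that of 8 hepatocyte genes 39200 and 24.7 to 2275, the highest in C5F. The part of these cell types in the members' values was not tested. Of the 10 hepatocyte genes 5 were above background in C5F and 0 in C6, N1 and L2.

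**Figure D4:**
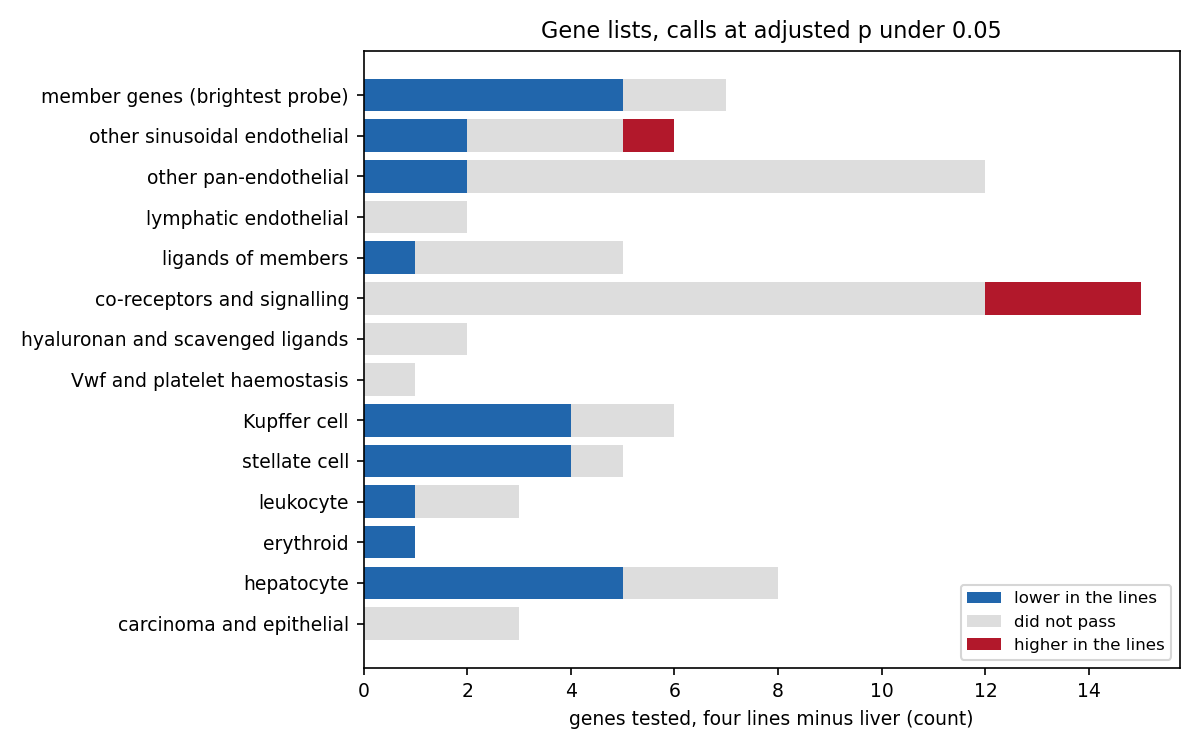
Number of genes tested (horizontal axis) in each gene list (vertical axis), split into those lower in the 4 lines (blue), those higher (red) and those that did not pass (grey) at a limma adjusted p under 0.05, with 1 probe per gene, the one with the highest mean signal. On that probe 5 of 7 member genes were lower, against 4 of 6 Kupffer genes and 5 of 8 hepatocyte genes. Lower too were 2 of 6 genes of the further sinusoidal list, where 1 was higher, and 2 of 12 of the general endothelial list.

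The genes whose pattern was nearest to a member's were sought among 4430 named genes usable on all 5 arrays, by the Euclidean distance between log2 signals after each probe's own mean was subtracted. S1pr1, a sphingosine phosphate receptor of endothelium and lymphocytes, was nearest to Lyve1 (distance 0.23), ahead of the hepatocyte genes Pdzk1 (0.25) and F9 (0.34). The stromal genes Pdgfrb (0.14), Dcn (0.15) and Col6a1 (0.21) were nearest to Kdr, and Nckap1l, Mttp and Col14a1 to Stab2 (0.04 to 0.05). Tie1 had 1 gene within a distance of 1, Xdh (0.46), followed by Slc38a4 (1.01) and the lectin receptor Clec1b (1.10). Il10ra (0.75), Aqp11 (0.91) and Copz2 (1.04) were nearest to Vwf. Nearest to Stab1 were Il34 (0.34), Ghr (0.417) and Slc23a1 (0.445). The bile acid enzyme Baat (0.32), Agmo (0.502) and Gpld1 (0.615) were nearest to Tek. Stab2 had 172 genes within a distance of 1, Kdr 129, Stab1 55, Lyve1 45, Tek 39 and Vwf 2. All these distances rest on the same 5 arrays, and line values tied at the floor bring patterns closer.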

How the data were processed

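The 5 samples, 1 liver and 4 carcinoma lines, were measured on 1 CodeLink Rat Whole Genome array each. Scans were quantified by the authors in CodeLink Expression Analysis 4.1.0.29054, per the file headers. Each deposited file holds raw and normalized intensity (raw over the array median) per spot, and values of the latter equal those in the deposited value table (largest difference 0). Background subtraction is inferred from values below 0.

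Raw intensity of the 33849 discovery probes was used. Irregular, contaminated and masked spots were set to missing, signals were quantile normalised, floored at 2.53 (the median of near-background spots) and taken to log2. Probes above background in liver or in 2 or more lines were kept (16377). limma 3.58.1 (R 4.3.3) was fitted to all 5 arrays with liver and both metastatic classes as groups, and p-values were adjusted over all tested probes by Benjamini-Hochberg, two-sided. The lone liver is taken to vary as the lines do, on 2 residual degrees of freedom at most and a prior of 1.46. Probes without residual degrees of freedom were not tested. Nothing in the labels says that lines of a class are replicates of 1 another, and each p-value measures the spread between lines only.

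A bound ("at least") sets the bright mean against, per dim array, the higher of the spot's own signal and the lowest signal with an above-background call (liver 14.6, C5F 7.87, C6 11.8, N1 13.0, L2 11.2). Above-background calls covered 30.6% of probes in liver and 32.7% to 39.2% in the lines, irregular calls 6.73% to 8.71%. The number of arrays limits the precision. Symbols came from the platform annotation, updated by Entrez number through a RefSeq table of build GRCr8 (16753 probes with 1 gene, 165 with several, 16931 with none). Where 1 probe stands for a gene it is the one with the highest mean signal.

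Members and lists were chosen with earlier results of these data known. Named genes are all members with every probe, up to 4 genes per other list with the largest difference, fixed ligands and markers, and the 3 genes nearest to each member; Gata4, Pdpn, Has1, Has2 and Lrat were added after their values were seen. The fit was tested on simulated data. Those data were not floored and every spot counted as above background, so the test does not cover line values at the floor. Alternatives were other scalings, the authors' normalized values, an offset of 50, irregular spots kept, no filter, robust moderation, the lines as 1 group, and leaving out each line.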

Additional observations from a re-analysis of the deposited data

Results flagged for a closer look

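The Pecam1 liver spot on probe GE16063 was irregular and stayed out of the comparisons. With irregular spots kept it had a log2 signal of 7.49, above the 3.995 to 4.35 of the 4 lines in the same normalisation. No member probe with a line above background had 1 line far from the other 3 by Dixon's criterion.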

How the results depend on the processing

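All 8 tested member probes were lower in the lines than in liver under all 12 alternatives. They had entered the main fit through their liver spots alone, so this direction was close to fixed and is no support for a difference. The call varied: 4 of 7 member genes passed when arrays were scaled to the median of probes above background and 4 of 9 with no filter. These were Lyve1, Stab2, Kdr and Tek in both. With an offset of 50 it was 7 of 7, and with irregular spots kept 7 of 9. Leaving out each line gave 0 to 4 genes, 0 to 485 probes lower and 0 to 132 higher. A line left alone in its class is assumed to vary as the others. The count of probes lower was 1725 with no filter; that of probes higher was 473 with an offset of 50, 1850 with irregular spots kept and 623 with no filter. The offset shrank the members' differences, to -2.32 for Lyve1 and -0.57 for Stab2. The median of all tested probes was 0.15, and 0.29 with scaling to the median of probes above background. Signs turned in differences that had not passed: Flt4 against liver was 0.0365 with that scaling and -0.15 to 0.10 without each line, Tie1 between the classes was -0.10 with the offset and -1.61 to 1.72 without each line, Stab1 -0.89 to 0.31, Vwf -0.996 to 1.51, and Gpc3 against liver -1.07 to 1.91; the cause was not tested. No paired analysis was possible because the liver came from another strain than the lines, and the labels give no pairing of lines between the classes. Dim liver signals limit the bounds for Stab2 and Kdr.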

Other observations

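Gpr182 and Sox17, both from the endothelial lists, each had probes on which liver lay on opposite sides of the lines. Gpr182 was near background in liver (1.85) and above background in C5F (3.77) and C6 (3.90) on its standing probe, whereas its other probe was at 6.82 in liver, 2.91 in C5F, 1.83 in C6 and 1.34 in N1 and L2. Sox17 was at 2.76 in liver and 3.60 to 4.98 in the lines on 1 probe, and at 4.34 in liver and 2.03 to 2.63 in the lines on another. For Gpr182, choosing the probe by mean signal over the arrays picked the one that was called higher.

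Of the Vwf and platelet list 4 of 10 genes had a probe. Gp9, a subunit of the platelet receptor for Vwf, was at 4.28 in liver and near background in all 4 lines (limma adjusted p = 0.112). Pf4, chosen after its values were seen, was near background on all 5 arrays.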
